A study of Mus musculus with 3 samples.

Results

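The proteasome subunit genes were taken as every gene of the deposited count table whose mouse symbol is Psma, Psmb, Psmc, Psmd, Psme, Psmf or Psmg followed by a number, with pseudogenes and opposite-strand transcripts left out. The rule found 50 of the 31040 genes in the table. They comprise 8 alpha subunits and 7 standard beta subunits of the 20S core, 3 immunoproteasome beta subunits and 1 thymus beta subunit (Psmb11). There are also 6 ATPases of the 19S regulatory particle, 14 Psmd genes classed as 19S non-ATPases, 5 activators, 1 inhibitor (Psmf1) and 4 assembly chaperones. The classes go by symbol, so a gene counted as a 19S non-ATPase need not be part of the finished particle. Psmc3ip fits the rule by name alone, since it encodes a recombination factor and no proteasome subunit, and it stays in the counts over all members (197 of their UMIs) but is placed in no class. The nuclei came from the lumbar spinal cord of 12 mice at day 90. The 6 SOD1G93A mice carried the high-copy human transgene of the B6.Cg-Tg(SOD1*G93A)1Gur/J strain, a model of amyotrophic lateral sclerosis in which the mutant protein is made on top of the mouse's own Sod1, and the 6 WT mice were littermates of the C57BL/6J background. Each genotype had 3 female and 3 male mice, which are separate animals. Each of the 3 pools, called A, B and C, combined hashtagged nuclei from 4 mice, namely a female and a male of either genotype. By the paper, a given hashtag always marked the same sex and genotype group, so hashtag and group cannot be told apart. The transgene is driven by the human SOD1 promoter in all cell types, and mice with altered copy number had not been enrolled.

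The proteasome is the machine that breaks down proteins marked with ubiquitin. Its 20S core is a barrel of stacked rings, in which the outer alpha rings gate the entry and the beta subunits Psmb5, Psmb6 and Psmb7 of the inner rings cut the chain. The 19S particle caps the barrel, binds the ubiquitin tag through its non-ATPase subunits, and unfolds and threads the protein with its ring of ATPases. In cells exposed to interferon, and in many immune cells, Psmb8, Psmb9 and Psmb10 take the places of Psmb5, Psmb6 and Psmb7 and form the immunoproteasome, which is known for making peptides for MHC class I. Motor neurons of patients and of SOD1 mouse models are known for inclusions that stain for ubiquitin, which is why levels of these genes are of interest in this tissue.

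Upstream sequence is shown for the 4 subunit genes that the genotype results below turn on, which are the beta subunits Psmb4, Psmb5 and Psmb6 and the ATPase Psmc6. The sequences are from RefSeq on GRCm38.p6 and run 5′ to 3′ on the strand of the gene, from 250 bases before the RefSeq start to at most the base before it, and stop earlier where a GENCODE transcript starts earlier. They lie at chr3:94886962-94887208 on the minus strand (Psmb4), chr14:54618023-54618245 on the minus strand (Psmb5), chr11:70525107-70525356 on the plus strand (Psmb6) and chr14:45329574-45329787 on the plus strand (Psmc6). Capitals mark a match to TGACNNNGC on either strand, the core of the antioxidant response element. The transcription factors Nfe2l1 and Nfe2l2 bind elements of this kind together with small Maf proteins. Nfe2l1 is the one known for driving proteasome genes when proteasome activity falls.
Psmb4: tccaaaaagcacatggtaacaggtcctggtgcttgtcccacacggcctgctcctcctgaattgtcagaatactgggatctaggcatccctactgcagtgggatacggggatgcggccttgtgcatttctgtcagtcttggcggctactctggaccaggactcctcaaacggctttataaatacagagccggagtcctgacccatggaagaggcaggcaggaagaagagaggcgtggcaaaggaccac
Psmb5: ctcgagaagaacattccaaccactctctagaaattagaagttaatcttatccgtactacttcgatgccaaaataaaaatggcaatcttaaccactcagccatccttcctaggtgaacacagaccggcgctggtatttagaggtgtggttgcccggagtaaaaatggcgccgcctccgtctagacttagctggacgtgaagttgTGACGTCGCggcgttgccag
Psmb6: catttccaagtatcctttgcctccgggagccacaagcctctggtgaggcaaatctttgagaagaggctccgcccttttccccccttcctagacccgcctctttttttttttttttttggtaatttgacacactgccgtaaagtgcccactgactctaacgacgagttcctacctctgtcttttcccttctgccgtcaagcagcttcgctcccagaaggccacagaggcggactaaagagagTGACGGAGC
Psmc6: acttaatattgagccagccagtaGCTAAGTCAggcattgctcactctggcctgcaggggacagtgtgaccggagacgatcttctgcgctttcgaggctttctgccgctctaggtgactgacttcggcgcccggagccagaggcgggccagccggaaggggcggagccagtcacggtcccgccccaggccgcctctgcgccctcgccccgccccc
The match in Psmb6 reads TGACGGAGC and that in Psmb5 reads TGACGTCGC, both on the strand of the gene. The match in Psmc6 lies on the other strand, and the Psmb4 sequence holds no match. Among the 42 members that RefSeq windows could be matched to, with 45 windows in all, 5 windows held the element (Psmb5, Psmb6, Psmc6, Psmd9 and Psmd12), or 11.111%, next to 10.161% of all 32851 windows of the same length. CCAAT was found in 33.333% of the members' windows and 33.85% of all windows. The core of the interferon-stimulated response element, read as GAAA, any 2 bases and GAAA again, was found in 3 members' windows (Psmb3, Psmd4 and Psmd9), or 6.667%, next to 2.977% of all windows. Both strands were searched for each motif, and a match is a description of these letters only.

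The 14662 nuclei held 206486779 UMIs, of which 285164, or 0.1381%, fell on the 50 members. Totals per mouse ran from 6411715 to 36668441 UMIs, and proteasome UMIs per mouse from 9064 to 49311. Mouse Sod1, to which reads of the human transgene can align, was at 31.2 to 106 UMIs per 1000000 (CPM) in WT mice and at 174 to 594 CPM in SOD1G93A mice, so the genotypes did not overlap. In neurons, oligodendrocytes and endothelial cells their own marker list had the highest level. Motor neurons held 1305 CPM of their own markers and 1233 CPM of OPC markers, and OPCs held 3415 CPM of their own and 2017 CPM of oligodendrocyte markers. Astrocyte nuclei held 1373 CPM of their own markers and 1518 CPM of oligodendrocyte markers, and the part of RNA from other types in the values of these 3 types was not tested. The nuclei labelled microglia held only 74.6 CPM of their own markers (Cx3cr1, Csf1r, Ptprc) and 2510 CPM of oligodendrocyte markers. The nuclei labelled Schwann and meningeal held only 106 CPM of Pmp22 and Prx, with 477 CPM of astrocyte, 450 CPM of neuron and 4792 CPM of oligodendrocyte markers, so that their own markers did not lead. A total of 15 cell barcodes occurred in more than 1 pool.

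UMIs per gene followed the length of the gene. Psme4, which encodes the activator PA200 and spans 108.6 kb, had the most UMIs, with 51591. Psmd14, the 19S deubiquitinase that removes the ubiquitin chain, had 29571, and Psmd1 had 20266. At the low end were Psme2b with 0, Psmg3 with 8 and the thymus subunit Psmb11 with 26. The immunoproteasome subunits Psmb9 with 152, Psmb8 with 218 and Psmb10 with 679 were low too. Why Psme2b had 0 was not tested. Over the 47 genes with a known span and at least 100 UMIs, UMIs and span had a Spearman's rho of 0.67, a correlation across genes that are not independent replicates. Per kb of gene the order differed, since Psmb6 had 714 and Psmb4 had 655 UMIs per kb while Psme4 had 475. Reads from introns are counted in nuclei, so that a level here is of nuclear RNA and not of the mature message.

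Proteasome genes took the largest share of UMIs in the Schwann and meningeal nuclei and in endothelial cells. Their summed level was 2681 ± 548 CPM on unscaled library sizes (mean ± SD, n = 12 mice) in the former and 2606 ± 408 in the latter. The Schwann and meningeal nuclei were the shallowest of all types, with a median of 1584 UMIs per nucleus. They gave 36 to 4215 proteasome UMIs per mouse. The next types with all 12 mice were motor neurons at 1497 ± 166 and astrocytes at 1431 ± 173. Oligodendrocytes were at 1316 ± 52.6, neurons at 1303 ± 69.1, microglia at 1276 ± 79.4 and OPCs at 1246 ± 97.0, and these 4 neighbours lay within their spread of each other. The lowest endothelial mouse, at 2079, and the lowest Schwann and meningeal mouse, at 1838, bracket the highest motor neuron value of 1842, and both lie above the highest neuron value of 1417. Fibroblasts at 1635 ± 809 and ependymal cells at 1469 ± 312 had nuclei in 10 and 11 mice and few UMIs. With library sizes rescaled between types, these 2 types fell to 819 and 807 CPM, below all others. The endothelial level at 2382 and the Schwann and meningeal level at 2326 CPM stayed the highest, in turned order, and neurons at 1867 and oligodendrocytes at 1731 CPM then lay above astrocytes at 1685, so that the order of these types turned.

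**Figure D1:**
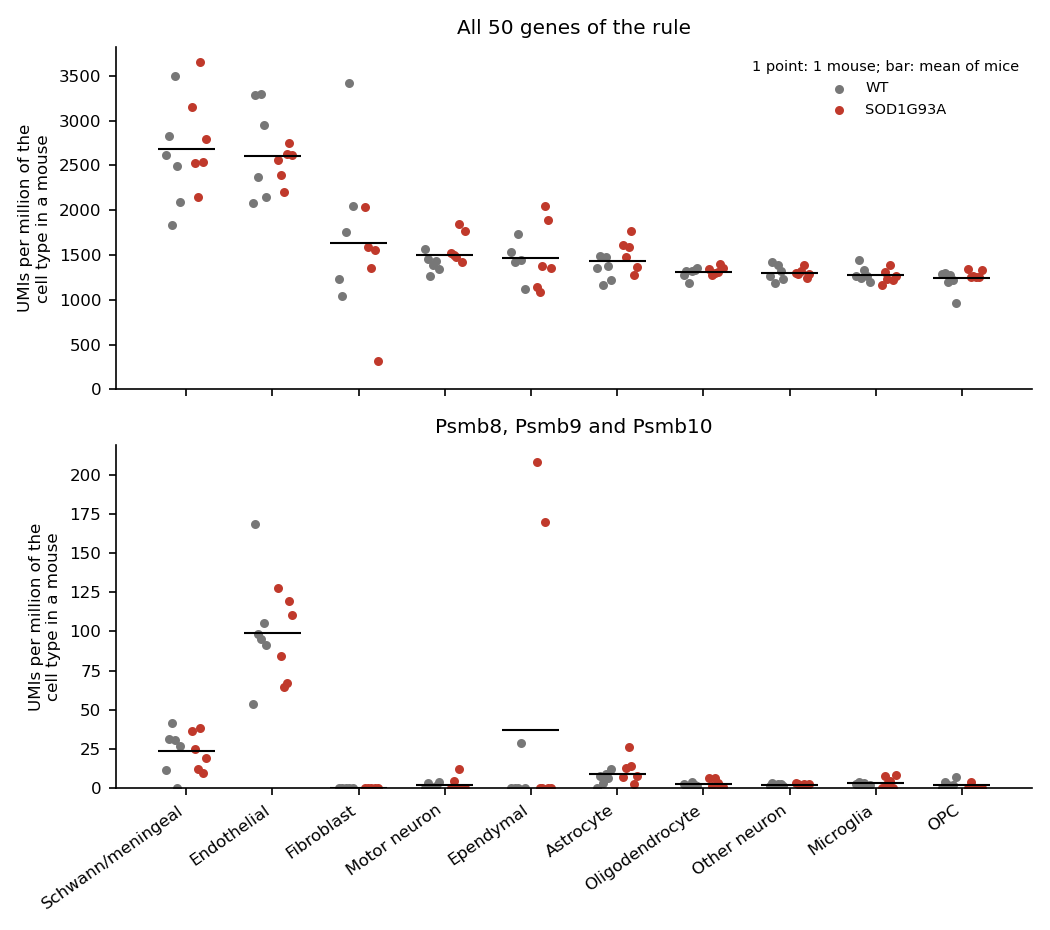
Summed level of all 50 members (top) and of Psmb8, Psmb9 and Psmb10 (bottom) in each deposited cell type, in CPM of that type, with 1 point per mouse (WT grey, SOD1G93A red) and a bar at the mean. The Schwann and meningeal nuclei and the endothelial cells sit highest in the top panel, at means of 2681 and 2606, and the endothelial cells sit highest in the bottom panel, at a mean of 98.8.

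The order of the types differed between the classes. The standard 20S core was at 1045 ± 314 CPM in Schwann and meningeal nuclei and 1032 ± 253 in endothelial cells, and at 349 ± 24.3 in neurons. Psme4 alone was at 310 ± 43.9 in motor neurons, 254 ± 13.6 in neurons, 177 ± 37.2 in endothelial cells and 174 ± 86.2 in Schwann and meningeal nuclei. Of the 4 activators with at least 100 UMIs, Psme4 was the one highest in motor neurons, 1 was highest in endothelial cells and 2 in Schwann and meningeal nuclei. Of the 47 members with at least 100 UMIs, 21 were highest in endothelial cells, 21 in Schwann and meningeal nuclei, 4 in motor neurons and 1 in OPCs among the 8 types with all mice. Of the same 47, 17 were lowest in OPCs, 10 in motor neurons and 5 each in microglia and neurons. A further 4 were lowest in oligodendrocytes, 3 in astrocytes, 2 in Schwann and meningeal nuclei and 1 in endothelial cells. These counts describe the order of the means and carry no test. The order over all genes was not taken, so whether these counts are particular to the members was not tested.

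The immunoproteasome subunits had their highest level in endothelial cells. Of their 1049 UMIs in all, 454, or 43.28%, came from endothelial nuclei, which held 2.24% of all UMIs. Summed over the 3 genes, the level was 98.8 ± 31.4 CPM in endothelial cells, 23.4 ± 13.0 in Schwann and meningeal nuclei, 9.01 ± 6.80 in astrocytes, 3.03 in microglia and 2.06 ± 0.67 in neurons. Ependymal cells had a mean of 37.0 ± 76.2 CPM that rested on 5 UMIs. In motor neurons 10 UMIs were found, in OPCs 6 and in fibroblasts 0 of 214721, where 3 UMIs would be 14.0 CPM, so that a level up to that value was not detectable. The endothelial nuclei held 13.8 CPM of microglial markers and 437 CPM of oligodendrocyte markers, and the part of other cells in these values was not tested. The low level in the nuclei labelled microglia stands beside their low level of microglial markers.

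A comparison of endothelial cells with neurons within each mouse was added after these levels were seen. Psmb8, Psmb9, Psmb10, Psmb5 and Psmb6 passed the filter on low counts only through endothelial cells, so the filter itself favoured a higher level there, and their values are a description with no test. On scaled library sizes, Psmb8 was at a median of 28.1 CPM in endothelial cells (8.38 to 68.6) and 0.152 CPM in neurons (0 to 0.801). Psmb9 was at 14.7 CPM (9.11 to 27.9) against 0.270 (0.162 to 0.591), and Psmb10 at 38.1 CPM (19.8 to 64.3) against 2.01 (0.694 to 2.73). The ranges of these 3 genes did not overlap between the types in the 12 mice. Of their constitutive partners, Psmb5 was at 60.7 CPM (31.4 to 124) against 7.33 (4.64 to 11.1) and Psmb6 at 60.6 CPM (32.1 to 109) against 5.26 (3.03 to 9.14), also with no overlap. Psmb7, which passed the filter in both types, was at 47.1 CPM (32.3 to 53.6) against 37.1 (32.0 to 47.1), a log2 difference of 0.31 (SE 0.11) with overlapping ranges. Its call (adjusted p from limma 0.0157) was lost under DESeq2, without the filter on low counts and in WT mice alone (adjusted p 0.490, 0.344 and 0.198).

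Of 44 members tested in this comparison, 12 passed the filter only through endothelial cells, 1 only through neurons and 31 in both. Of these 31, 22 were higher and 6 lower in endothelial cells at an adjusted p under 0.1, where 40% and 46.7% of all 12186 genes tested, however they passed, were called higher and lower. The pair was chosen after the higher summed level in endothelial cells was seen, so these counts are a description and no test. All 6 ATPases, 6 of 7 alpha subunits and 7 of 12 19S non-ATPases were higher. Psma7 (2.80, SE 0.15), Psma6 (2.61, SE 0.11) and the ATPase Psmc3 (2.31, SE 0.13) had the largest log2 differences among the 31. The activator Psme1, a subunit of PA28 that is known to work with the immunoproteasome, was at a median of 46.0 CPM against 3.01 in neurons, and it too passed only through endothelial cells. The 6 lower members were Psmd14 and Psme4 (both -0.98), Psmd9 (-0.73), Psma3 (-0.70), Psmd1 (-0.51) and Psmd11 (-0.37). They had a median span of 77.7 kb, and the 22 higher members one of 12.8 kb. Across the 31 genes, span and the log2 difference had a Spearman's rho of -0.72, a description over genes counted in the same libraries, and the part of span in the difference between the types was not tested.

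Of the regulators of the immunoproteasome and the genes of MHC class I, 5 of 8 tested (H2-K1, B2m, Tap1, Tap2 and Irf1) also passed the filter only through endothelial cells, and no count over them is given. Among those that passed in both types, H2-D1 was higher by 4.80 and Tapbp by 3.41. Over the 28 pathway genes that passed in both, 17 were higher and 7 lower, next to 40% and 46.7% of all genes tested. The ubiquitin genes Rps27a (4.21) and Ubb (3.69), the maturation factor Pomp (4.10) and the transcription factor Nfe2l1 (2.24) were among the higher ones. The 7 lower genes ran from -0.51 for Mafg to -0.89 for the ubiquitin-activating enzyme Uba6. All these values are log2 differences between endothelial cells and neurons.

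Against astrocytes, 21 of 40 members tested were lower and 7 higher in neurons, next to 40.3% lower and 37.9% higher among 12463 genes. At a minimum count of 30, 13 were lower, and 11 were higher with DESeq2 or with no filter. Of the 32 members that passed the filter in both types, 15 were lower and 7 higher, among them 4 of 5 standard beta subunits and 4 of 5 ATPases that were lower. Psmb4 and Psmb6 passed only through astrocytes, so the filter itself favoured a lower level in neurons and their values are a description. Psmb4 was at a median of 5.07 CPM in neurons (2.49 to 9.32) and 19.3 CPM in astrocytes (7.47 to 32.9), with overlapping ranges, and Psmb6 at 4.67 CPM (2.69 to 8.11) against 14.5 (6.45 to 33.7). Of those that passed in both, Psmb5 was lower by a log2 difference of -1.65 (SE 0.13), the ATPase Psmc5 by -1.37 (SE 0.09), Psma4 by -1.33 (SE 0.14), Psmd8 by -1.14 (SE 0.15) and Psmb7 by -0.28 (SE 0.09). In the other direction were Psmd9 at 0.51 (SE 0.11), Psmd14 at 0.49 (SE 0.06), Psma3 at 0.38 (SE 0.09) and Psmd1 at 0.33 (SE 0.06). Psmd14 had a median of 158 CPM in neurons (139 to 180) and 111 CPM in astrocytes (83.6 to 134), with no overlap.

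The members higher in neurons were again long, with a median span of 74.8 kb, and the lower ones that passed in both types short, with a median span of 10.1 kb. Across the 32 genes that passed in both, the rho of span and the log2 difference was 0.66, given as a description. On the pathway list, 19 of 33 genes tested were lower and 6 higher in neurons, and of the 26 that passed in both types 13 were lower and 6 higher, next to 40.3% lower and 37.9% higher of all genes tested. H2-K1, B2m, Nfe2l2 and Nlrc5 passed the filter only through astrocytes, so the filter itself favoured a lower level in neurons. They were at medians of 1.52, 4.26, 5.81 and 2.43 CPM in neurons and 22.0, 39.5, 43.1 and 10.7 CPM in astrocytes, given as a description. Of the others, Rps27a (-2.32) and Ubb (-1.98) were among the genes with the lowest log2 differences. Ubqln2 (-1.95), Tap2 (-1.76), Pomp (-1.49), Nfe2l1 (-1.07), Tapbp (-0.70), H2-D1 (-0.69), Akirin2 (-0.64), Sem1 (-0.59), Uba1 (-0.56), Ngly1 (-0.55) and Ddi2 (-0.16) were also lower. The higher genes were Ubqln4 and Nploc4 (both 0.62), Uba6 (0.59), Usp14 (0.33), Ipo9 (0.30) and Mafg (0.26).

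**Figure D2:**
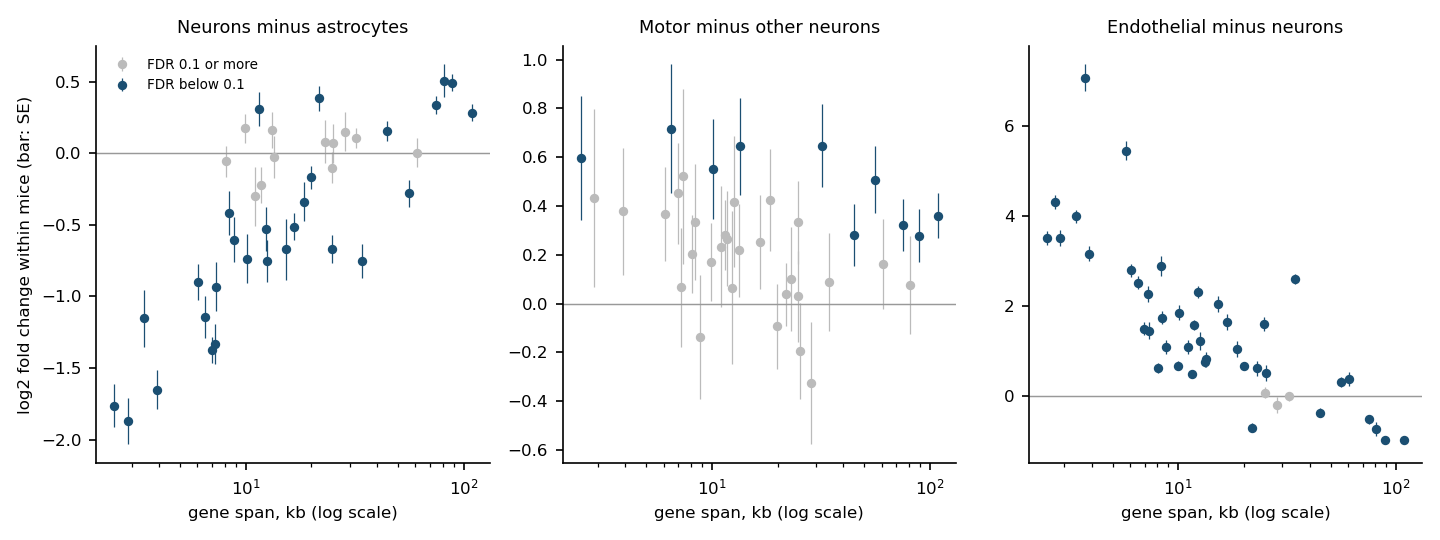
Log2 difference of each tested member between cell types within mice (y axis, bars are the standard error) against the span of its gene in kb (x axis, log scale), 1 point per gene, for neurons against astrocytes, motor neurons against other neurons and endothelial cells against neurons, with called members in dark blue. In endothelial cells against neurons most short genes lie above 0, including the 12 that passed the filter only through endothelial cells, and the longest lie below it. In neurons against astrocytes the order is turned round.

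Against oligodendrocytes, neurons had 13 of 39 members lower and 7 higher, next to 41.4% lower and 38.3% higher among 12646 genes. In WT mice alone 3 were higher, with no filter 12 were higher, and at a minimum count of 30, 8 were lower. Of the 32 members that passed the filter in both types, 10 were lower and 7 higher. Psmb6 passed only through oligodendrocytes and was at 4.48 CPM in neurons (2.58 to 7.79) and 6.28 in oligodendrocytes (3.38 to 13.4). The lower members with the largest differences were otherwise Psma4 at -0.78 (SE 0.12), Psma6 at -0.66 (SE 0.08) and the chaperone Psmg4 at -0.66 (SE 0.19). Psma6 had a median of 15.0 CPM in neurons (11.6 to 17.2) and 21.8 CPM in oligodendrocytes (17.6 to 28.3), with no overlap. Psmb7 was lower by -0.20 (SE 0.07), and Psmb5, at -0.30 (SE 0.17), did not pass the test (adjusted p from limma 0.110). The alpha ring subunits Psma1 at 0.69 (SE 0.08), Psma3 at 0.41 (SE 0.07) and Psma2 at 0.26 (SE 0.08) and the 19S subunit Psmd3 at 0.26 (SE 0.12) were higher in neurons, so that the alpha ring was split, with 3 of 7 subunits in each direction. On the pathway list 15 of 32 genes were lower and 7 higher, next to 41.4% and 38.3% of all genes. Nfe2l2 (-2.60), Nlrc5 (-1.52), Ngly1 (-0.87), B2m (-0.85), Rps27a (-0.70), Ubb (-0.62), Sem1 (-0.53), Ubqln2 (-0.41), Vcp (-0.38), Pomp (-0.34), Ddi2 (-0.33), Akirin2 (-0.29) and Ufd1 (-0.15) were among the genes lower in neurons. Tap2 (1.03), Ubqln4 (0.51), H2-D1 (0.48), Uba6 (0.39), Mafg (0.36), Usp14 (0.23) and Nploc4 (0.14) were higher.

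Motor neurons, the cells lost in this model, were compared with the other neurons of the same mouse. They were few, with 67 nuclei in all and 1 to 11 per mouse, but deep, with a median of 53245 UMIs per nucleus against 12864.5 in the other neurons. Of 38 members tested, 10 were higher and 0 lower in motor neurons, next to 21.8% higher and 18.2% lower among 11272 genes, and 0 were lower by edgeR, by DESeq2 and at an unadjusted p under 0.05 by limma too. With DESeq2 6 were higher, and with no filter on low counts 1 was lower. In simulated data this comparison held more false calls than the threshold states, so its calls are less certain than their adjusted p. No member passed the filter through motor neurons alone. The median log2 difference was 0.28 for the members and 0.02 for all genes. For some members with few UMIs the fitted difference lay above that of the mean CPM. Psmb6 had means of 5.05 CPM in motor neurons and 4.57 in other neurons, with a fitted difference of 0.60. Psmg1 had means of 3.74 and 4.86 CPM, with a fitted difference of 0.23. The median and the count of 0 lower members carry this limit and are no measure of a general rise. The higher members were 4 of 7 standard beta subunits, 5 of 13 19S non-ATPases and Psme4. Psme4 was at a median of 328 CPM (163 to 415) in motor neurons and 260 CPM (232 to 280) in other neurons, a log2 difference of 0.36 (SE 0.09). It was higher in 11 of 12 mice, but the ranges overlap.

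Psmb2, a standard beta subunit with no cutting site, was at 92.0 CPM (0 to 185) against 65.4 (61.5 to 75.3), a log2 difference of 0.65 (SE 0.17, adjusted p from limma 0.00527). Psmd3 was at 18.8 CPM (4.52 to 31.2) against 13.4 (11.6 to 16.4), a difference of 0.64 (SE 0.20), and Psmb7 at 40.0 CPM (23.3 to 67.2) against 31.6 (27.1 to 39.9), a difference of 0.51 (SE 0.14). Each was higher in 11 of 12 mice, with overlapping ranges. Psmb3 (0.55, higher in 7 of 12 mice), Psmd1 (0.32), Psmd14 (0.28) and Psmd11 (0.28) were also called. The calls of Psmd8 at 0.72 (SE 0.26, adjusted p from limma 0.0393) and Psmb6 at 0.60 (SE 0.25, adjusted p from limma 0.0773) rested on few UMIs and were higher in only 7 of 12 mice. Both were lost by edgeR, by DESeq2, in WT mice alone and without the 2 mice that had under 3 motor neuron nuclei. On the pathway list 5 of 29 genes were higher, next to 21.8% of all genes, and 0 lower (0 lower also at an unadjusted p under 0.05 by limma), next to 18.2%. The higher share was thus not above that of all genes. The 5 were H2-D1 (0.81, but higher in only 6 of 12 mice), the autophagy receptor Sqstm1 (0.55), Pomp (0.47), Mafg (0.38) and Nploc4 (0.36). In WT mice alone 5 members were higher and 1 lower.

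The comparison of SOD1G93A with WT mice asked which genes change at day 90, with both sexes together and the pool as a term. Within the 10 cell types, 0 members passed an adjusted p under 0.1, by limma, by edgeR's quasi-likelihood test and by DESeq2. The members tested numbered 44 in neurons, 40 in endothelial cells, 37 each in astrocytes and oligodendrocytes, 31 in Schwann and meningeal nuclei, 28 in microglia, 14 in motor neurons, 10 in OPCs, 1 in fibroblasts and 0 in ependymal cells. Among all genes tested, 3.07% were called in motor neurons, 2.29% in astrocytes, 0.0759% in microglia, 0.0475% in oligodendrocytes, 0.0411% in OPCs, 0.036% in Schwann and meningeal nuclei, 0.0255% in neurons, 0.0131% in endothelial cells and 0% in fibroblasts and ependymal cells. At an unadjusted p under 0.05, 4 members were higher in astrocytes, next to 7.77% of all genes there, and 2 in oligodendrocytes (Psma4 at 0.52 and Psma7 at 0.49), next to 2.43%. There was 1 higher in motor neurons (7.44% of genes), 1 in neurons (Psma2 at 0.15, 2.61%), 1 in OPCs (Psmd11, 3.33%) and 1 in Schwann and meningeal nuclei (2.09%). In the latter nuclei 1 was lower, the ATPase Psmc2 at -0.72, next to 2.57% of genes, and in endothelial cells, microglia and fibroblasts there were 0.

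The astrocyte members with the smallest p were the 19S subunits Psmd6 and Psmd13 and the beta subunits Psmb3 and Psmb6. Psmd6 had 12.9 CPM in WT and 19.3 CPM in SOD1G93A mice, a log2 difference of 0.62, and Psmb6 13.9 and 21.1 CPM, a difference of 0.58. With each mouse left out in turn, the difference ran from 0.35 to 0.78 for Psmd6 and from 0.38 to 0.77 for Psmb6. Psmb3 (0.61) and Psmd13 (0.38) were alike, and the 4 adjusted p from limma lay between 0.289 and 0.358. In Schwann and meningeal nuclei, Psme4 was at 143, 129 and 109 CPM in the female WT mice and at 149, 62.0 and 188 CPM in the male WT mice of pools A, B and C. In SOD1G93A mice it was at 212, 321 and 188 CPM in females and 154, 446 and 339 CPM in males. The 62.0 CPM of the pool B male WT mouse came from 13 nuclei with 14464 UMIs over all genes. That value rests on very few UMIs of Psme4. The groups overlap, and the log2 difference of 0.80 (SE 0.26) had an adjusted p from limma of 0.753. In endothelial cells, where the immunoproteasome genes are read best, Psmb8 was at 42.4 ± 24.9 CPM in WT and 33.9 ± 12.9 CPM in SOD1G93A mice (-0.42, SE 0.34) and Psmb10 at 47.5 ± 17.6 and 45.5 ± 14.8 CPM (-0.12, SE 0.28), n = 6 each. Psmb9 was under the filter, at 17.0 ± 3.43 and 21.1 ± 9.72 CPM.

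In motor neurons the largest difference of the 14 members tested was that of Psmc6, an ATPase of the 19S base. In WT mice it was at 32.7, 46.0 and 13.0 CPM in females and 26.0, 33.6 and 36.6 CPM in males of pools A, B and C. In SOD1G93A mice it was at 58.5, 61.7 and 33.9 CPM in females and 61.6, 40.3 and 66.9 CPM in males. Each SOD1G93A mouse was above the WT mouse of its sex and pool, in 6 of 6 pairs, but 2 SOD1G93A mice lay under the highest WT mouse. In the pool C female pair, the SOD1G93A value came from 1 nucleus with 27658 UMIs over all genes. That value, and so that pair, rests on very few UMIs of Psmc6. The means were 31.3 ± 11.1 and 53.8 ± 13.4 CPM and the log2 difference 0.91 (SE 0.31), with an adjusted p from limma of 0.149. It fell to 0.0658 when the pool B female WT mouse was left out and to 0.0766 without the male SOD1G93A mouse of pool B, so that 1 mouse decides this call. With other mice left out the adjusted p from limma rose to as much as 0.338. The log2 difference ran from 0.63 to 1.29 over the mice left out.

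The next members up were Psmd13, at 26.0 ± 6.92 and 41.7 ± 21.3 CPM (0.59, SE 0.37), and Psmd1, at 120 ± 20.0 and 158 ± 59.3 CPM (0.27, SE 0.20). In the other direction, Psmb2 was at 125 ± 37.2 and 79.0 ± 39.1 CPM (-0.39, SE 0.24), Psmd14 at 207 ± 30.0 and 179 ± 42.3 CPM (-0.24, SE 0.19) and Psme4 at 357 ± 49.2 and 319 ± 53.3 CPM (-0.12, SE 0.16). None of these 5 passed the test by limma, where the adjusted p lay between 0.452 and 0.787. The female SOD1G93A mouse of pool C had 1 motor neuron nucleus, and it gave both the highest Psmd1 value and the 0 of Psmb2. On the pathway list 1 of 17 genes was called, the ubiquitin gene Ubb, next to 3.07% of all genes, a share near that of the list. It was at 45.7, 15.3 and 6.52 CPM in female and 45.0, 44.2 and 22.9 CPM in male WT mice, and at 205, 90.2 and 67.9 CPM in female and 318, 24.2 and 31.9 CPM in male SOD1G93A mice. Ubb was higher in 5 of 6 pairs, the groups overlap through 2 male SOD1G93A mice, and the log2 difference of 1.88 (SE 0.41, adjusted p from limma 0.0459) was not called without the pool term (adjusted p 0.246). It was also lost with the pool A or C female WT mouse or the pool B or C female SOD1G93A mouse left out, with an adjusted p up to 0.128, and the difference ran from 1.26 to 2.21 over the mice left out. In astrocytes 1 of 33 pathway genes was called, next to 2.29% of all genes. It was B2m, the light chain of MHC class I, at 34.3 ± 6.39 CPM in WT and 52.9 ± 8.91 CPM in SOD1G93A mice, with no overlap (0.65, SE 0.17, adjusted p from limma 0.0524). This call was lost without the pool term, with no filter on low counts, and without any one of 6 mice (the pool A and B female and the pool B and C male WT mice, and the pool B female and pool A male SOD1G93A mice), with an adjusted p up to 0.150.

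**Figure D3:**
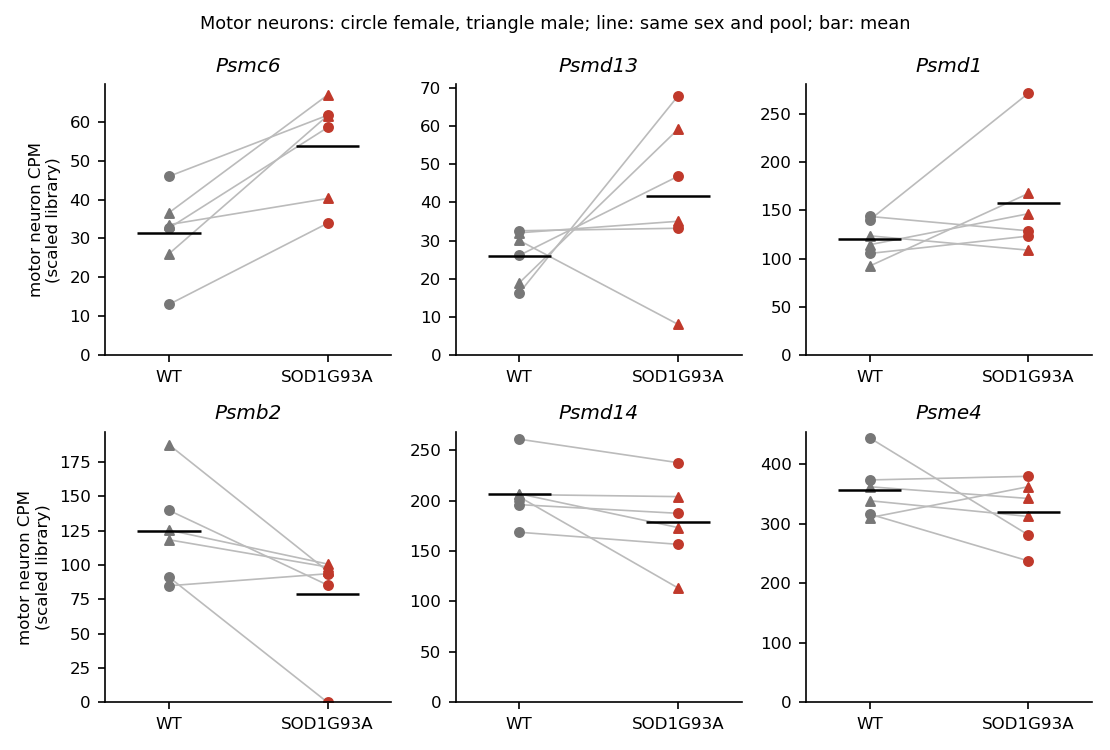
Motor neuron values of 6 members in CPM on scaled library sizes, WT (grey) beside SOD1G93A (red), with 1 point per mouse (circles female, triangles male), a line between mice of the same sex and pool and a bar at the mean. Psmc6 has means of 31.3 and 53.8 CPM with overlapping points and every line going up, and every line of Psmd14 goes down.

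Summed over all nuclei of a mouse, 47 members could be tested and 1 was called, Psmb6, next to 3.14% of 17097 genes. In such sums a change in the number of cells of a type and a change in the RNA per cell cannot be told apart. The share of UMIs from Schwann and meningeal nuclei was 0.634 ± 0.343% in WT and 2.95 ± 1.28% in SOD1G93A mice, that from endothelial cells 2.12 ± 0.890% and 3.16 ± 1.15%, and that from neurons 72.6 ± 3.08% and 68.7 ± 5.75%. The part of these shares in the result was not tested. The paper tested the abundance of cell types, which is a measure other than the share of UMIs. It reported no significant difference between the genotypes for any type. Within types, the 7 standard beta subunits had a median log2 genotype difference of -0.13 in Schwann and meningeal nuclei and -0.15 in endothelial cells. It was 0.34 in astrocytes, 0.09 in neurons and 0.06 in oligodendrocytes. Psmb6 was at 6.83, 8.26 and 5.18 CPM in female and 9.44, 6.00 and 6.64 CPM in male WT mice. It was at 14.2, 8.16 and 6.54 CPM in female and 15.6, 8.57 and 8.51 CPM in male SOD1G93A mice. The groups overlap, Psmb6 was higher in 5 of 6 pairs, and its log2 difference was 0.51 (SE 0.14, adjusted p from limma 0.0925).

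Psmb5 was at 8.73 ± 1.11 CPM in WT and 12.4 ± 3.53 CPM in SOD1G93A mice, higher in 6 of 6 pairs, with a log2 difference of 0.48 (SE 0.13) that just missed the threshold (adjusted p from limma 0.101). Psmd13, a 19S lid subunit, was at 28.4, 30.1 and 27.3 CPM in female and 29.5, 28.8 and 28.3 CPM in male WT mice, and at 30.6, 31.5 and 32.7 CPM in female and 35.7, 34.1 and 31.6 CPM in male SOD1G93A mice. Its groups did not overlap, but the difference of 0.19 (SE 0.07) did not pass the test (adjusted p from limma 0.205). Psmb7, the third cutting subunit, was at 33.8 and 35.1 CPM (0.07, SE 0.07). The immunoproteasome subunits had values of 2.68 ± 0.669 and 4.05 ± 1.17 CPM for Psmb10 (0.51, SE 0.22), 0.890 ± 0.330 and 1.43 ± 0.521 CPM for Psmb8 (0.55, SE 0.29) and 0.704 ± 0.246 and 0.992 ± 0.460 CPM for Psmb9 (0.50, SE 0.30), with adjusted p from limma of 0.350, 0.464 and 0.547. The lower members with the smallest p were Psma3 at 77.7 ± 10.3 and 71.5 ± 3.20 CPM (-0.11, SE 0.08), Psme4 at 256 ± 16.8 and 244 ± 16.8 CPM (-0.07, SE 0.07) and Psme2 at 1.79 ± 0.717 and 1.53 ± 0.293 CPM (-0.20, SE 0.20), and none passed.

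**Figure D4:**
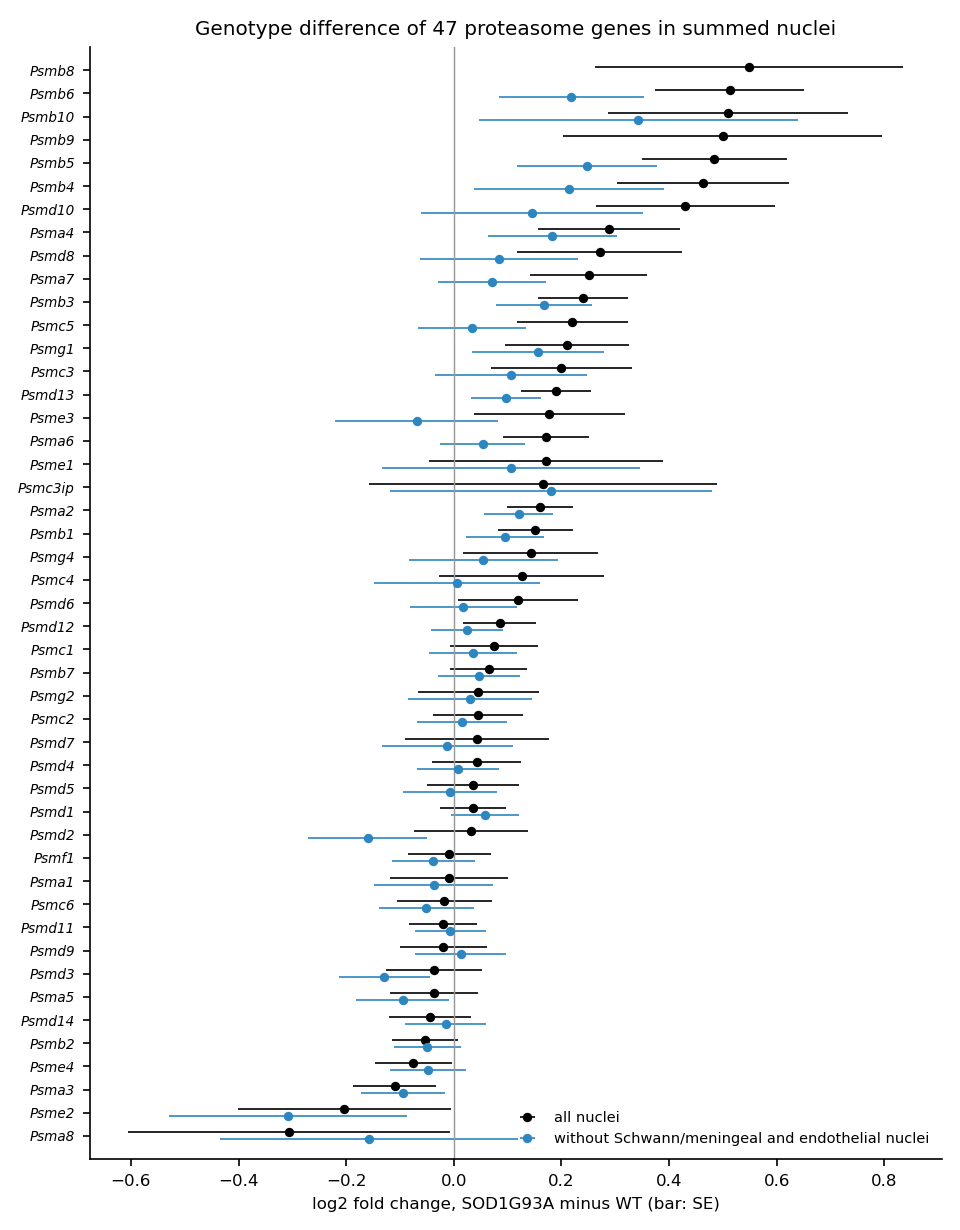
Log2 difference between SOD1G93A and WT mice of each member over all nuclei, with a bar for its standard error, in all nuclei (black) and without the Schwann and meningeal and the endothelial nuclei (blue). Psmb6 at 0.51 is the called member, 34 of 47 members lie above 0, and its blue value is 0.22.

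At an unadjusted p under 0.05, 11 of 47 members were higher and 0 lower, next to 10% and 2.99% of all genes. They included 5 of the 7 standard beta subunits (Psmb1, Psmb3, Psmb4, Psmb5 and Psmb6). Across the members, 34 of 47 lay above 0 with a median of 0.12, next to 0.00 for all genes. The differences were again ordered by gene span, with a rho of -0.68 over 47 genes, given as a description. On the pathway list 7 of 36 genes were called higher and 0 lower by limma, next to 3.14% of all genes called in either direction, and 0 were lower also at an unadjusted p under 0.05. The higher genes included the ubiquitin genes Ubb (0.67, SE 0.13) and Rps27a (0.46), the maturation factor Pomp (0.43), the transcription factor Nfe2l1 (0.40), the shuttle factor Ubqln2 (0.54) and the MHC class I regulator Nlrc5 (0.70). Ubb rose from 74.0 ± 28.9 to 119 ± 55.6 CPM. The calls of Psmb6 and of all 7 pathway genes were lost without the pool term. Each of the 6 pathway genes named lost its call with at least 1 mouse left out, Ubb with the pool C female WT mouse (adjusted p 0.102). Psmb6 was still called only when the mouse left out was the pool A or B female WT or the pool B male SOD1G93A mouse.

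The difference over all nuclei depended on which nuclei were summed, in settings chosen after the data were seen. Without the Schwann and meningeal and the endothelial nuclei, 0 of 45 members were called by limma and 0 had an unadjusted p under 0.05, next to 0.119% of genes called, and the median fell from 0.12 to 0.03. The difference of Psmb6 was then 0.22 (adjusted p from limma 0.955), that of Psmb5 0.25 and that of Ubb 0.34. Without the Schwann and meningeal nuclei alone, 0 of 47 members were called, next to 0.0939% of genes called. There were 3 members at an unadjusted p under 0.05, for which the share of all genes was not taken in this setting. Without neurons and motor neurons, 7 of 44 members were called, all higher, next to 6.56% of genes. They were Psmb6 (0.71), Psmb10 (0.70), Psmb5 (0.69), Psmb4 (0.59), Psma7 (0.51), Psmb3 (0.44) and Psmd13 (0.42). Within neurons Psmb6 was at 4.53 ± 0.793 and 4.50 ± 1.91 CPM, and Psmb5 at 6.16 ± 0.543 and 6.41 ± 2.02 CPM.

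The sex by genotype difference, taken as the genotype effect in males minus that in females, passed the test for 0 members in every cell type and in all nuclei, by limma, and for 0 members in the cell types by edgeR and by DESeq2. At an unadjusted p under 0.05 by limma there were 1 higher and 1 lower in endothelial cells (0.995% and 1.81% of all genes there), 1 higher in microglia (1.58%), 1 lower in astrocytes (1.62%) and in oligodendrocytes (1.19%), and 0 in all nuclei. Among all genes it was called for 0.0586% in motor neurons, 0.0107% in astrocytes and 0% in the other types and in all nuclei.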

How the data were processed

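Nuclei of the lumbar spinal cord were profiled with 10x Genomics single-nucleus RNA sequencing. The authors deposited UMI counts per gene and nucleus, made with Cell Ranger 3.1 on a pre-mRNA reference of mm10, so that intron reads are counted, and not normalized. A deposited table gives for each nucleus its mouse, pool and cell type, and the percent of mitochondrial UMIs, a value the authors computed before deposit. The authors removed nuclei with under 200 genes, over 10% mitochondrial UMIs, no hashtag or hashtags of several mice. Doublets within 1 mouse are not marked and no further filter was applied. The integrated, normalized table was left aside.

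UMIs were summed per mouse and deposited refined cell type, or over all nuclei, for the whole table of genes. With limma 3.58.1 and edgeR 4.0.16 in R 4.3.3, genes were filtered with filterByExpr (minimum count of 10), scaled with TMMwsp factors and fitted with voom, a term per sex and genotype group, a term per pool and robust eBayes. The labels give the pool as the batch, with 1 mouse of each group in each, so it pairs the mice. Over 8990 genes, the deviations of mice of different groups from their group means had a median correlation of 0.376 in 18 pairs from the same pool and -0.207 in 36 pairs from different pools. The deviations of a group cancel over its pools, so the negative value largely follows from the positive one and is no separate result. Cell types were compared with a term per mouse and a term per cell type. P-values were adjusted by Benjamini-Hochberg over all genes tested in a fit, and called under 0.1. CPM values beside a test are on scaled library sizes, and summed levels by type are CPM on the unscaled UMIs of that type and mouse. Spans are from GENCODE on GRCm38.

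Members named in full were those called for genotype, the 3 immunoproteasome subunits and their partners, the 3 members with the smallest p in each direction in motor neurons and in all nuclei, the 4 largest called differences in each direction between cell types, and the extremes of total UMIs. Pathway genes are named where called, except a few that are not reported here. In the endothelial comparison, examples are given instead. The members, lists and rules were chosen with earlier results of these data known. The comparison of endothelial cells with neurons was chosen after the levels were seen. Scripts were tested on simulated data, where calls between motor neurons and other neurons held more false calls than the threshold states. Alternatives were edgeR's quasi-likelihood test, DESeq2 1.42.0, TMM factors, other count filters, an FDR of 0.05, no pool term, eBayes without the robust option, WT mice only, and leaving out each mouse.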

Additional observations from a re-analysis of the deposited data

Results flagged for a closer look

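A sample far from the rest of its group was looked for in 54 groups of 5 or 6 mice with Dixon's ratio, which by chance picks out about 1 group in 20, and 4 were found. The summed level of the proteasome genes in OPCs was 968.7 CPM in the male WT mouse of pool C, where the other WT mice lay between 1202 and 1300. Over all nuclei, Psme2 was at 0.9656 CPM in the female SOD1G93A mouse of pool C and between 1.514 and 1.791 CPM in the other SOD1G93A mice. In motor neurons the same mouse, which had 1 motor neuron nucleus, was at 271.4 CPM of Psmd1, above the next value of 167.6 CPM. It was at 0 CPM of Psmb2, where the other SOD1G93A mice lay between 85.41 and 100.7 CPM.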

How the results depend on the processing

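Over all nuclei the count of 1 called member was the least stable value. It was 0 with edgeR, TMM factors, no filter on low counts, an FDR under 0.05 or no pool term (no replicate block), and 2 with DESeq2. Leaving out 1 mouse gave 0 to 4, with 2 when the pool A female WT mouse was left out, 3 for the pool B female WT mouse, 4 for the pool B male SOD1G93A mouse, and 0 for each of the others. It was 0 without the Schwann and meningeal nuclei, with or without the endothelial nuclei left out too, and 7 without neurons and motor neurons. The count of 0 over the cell types became 1 with no filter (Psmb4 in motor neurons), and 0 to 1 with a mouse left out. With the pool A female SOD1G93A mouse left out it was Psmb3 in astrocytes, and with the pool B female WT or male SOD1G93A mouse left out it was Psmc6 in motor neurons. The pool term pairs the mice, and without this block the all-nuclei adjusted p was 0.457 for Psmb6 and 0.494 for Ubb. Between motor neurons and other neurons, 6 members were higher with DESeq2 and 5 in WT mice alone, and 1 was lower with no filter and in WT mice alone. Between neurons and astrocytes, 11 were higher with DESeq2 and with no filter, and 13 lower at a minimum count of 30. Between neurons and oligodendrocytes, 12 were higher with no filter and 3 in WT mice alone, and 8 lower at a minimum count of 30, where fewer genes are tested. With library sizes rescaled between cell types, the summed levels moved to 1685 CPM in astrocytes, 807 in ependymal cells, 819 in fibroblasts, 1675 in microglia, 1944 in motor neurons, 1479 in OPCs, 1731 in oligodendrocytes and 1867 in neurons, while endothelial cells at 2382 came to lie above Schwann and meningeal nuclei at 2326. Of 903 values of single genes under these settings, 792 kept their direction and their side of the threshold, 98 lost the call, 13 gained it and 0 turned direction. The causes were not tested. The few UMIs of the immunoproteasome genes outside endothelial cells, and 1 to 11 motor neuron nuclei per mouse, limit what could be detected.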
